A study of Mus musculus with 12 samples.

Results

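Expression of 8 genes of lymphoid stroma was described in 2 subgroups of mouse lung fibroblasts, in normal lung and in lung carrying metastases. The genes were Cxcl13 and the factors that act beside it, namely the chemokines Ccl19 and Cxcl12, the cytokines Il7, Il15, Tnfsf13b and Tnfsf11, and the receptor Ltbr. They were taken by symbol, and all 8 were found among the 20606 genes of the deposited table. The series studies breast tumours that spread to the lung, and matrix fibroblasts positive for tryptophan dioxygenase. Its 12 bulk libraries formed 4 groups of 3: matrix fibroblasts of normal lung (N-MF), matrix fibroblasts of lung with metastasis (M-MF), and the MyoF subgroup of normal lung (N-MyoF) and of lung with metastasis (M-MyoF). The labels name neither strain, age and tumour line nor the sort that parted the subgroups. They also do not tie a group's 3 libraries to different animals. The p-values therefore reflect library-to-library spread, possibly only technical.

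Stromal cells of lymph nodes, spleen and inflamed tissue guide lymphocytes and keep them alive. CXCL13 attracts B cells and follicular helper T cells through CXCR5, CCL19 attracts T cells and dendritic cells through CCR7, and CXCL12 holds cells that carry CXCR4. IL-7 sustains T cells and innate lymphoid cells, BAFF (encoded by Tnfsf13b) sustains B cells, and IL-15, presented on IL15RA, sustains NK cells and memory T cells. RANKL (Tnfsf11) takes part in lymph node formation. The lymphotoxin beta receptor (Ltbr) sits on stromal cells, receives lymphotoxin from lymphocytes and acts through the noncanonical NF-kappaB pathway, of which Cxcl13 and Ccl19 are known targets. In inflamed lung, fibroblasts that make these factors are known to accompany lymphocyte clusters.

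Values are FPKM, fragment counts scaled by transcript length and by mapped fragments, so levels of different genes can be set side by side while the read depth is unknown. The 12 libraries summed to 528176 to 618478 FPKM, with 11466 to 12682 genes at 1 FPKM or more, and libraries of 1 group correlated at 0.998 to 0.999 on the log2 scale. The 10 fibroblast markers, with Dcn highest in N-MF and Lum in N-MyoF, summed to 21386 to 21634 FPKM in N-MF and 15439 to 15567 in M-MF, and to 3711 to 3773 in N-MyoF and 2144 to 2169 in M-MyoF. With metastasis 8 of them fell and 1 rose in MF, and 7 fell and 0 rose in MyoF. Myofibroblast and smooth muscle markers, including Acta2 and Hhip, summed to 354 to 483 FPKM in MF and to 3556 to 4970 in MyoF. Of 9 tested, 7 rose and 2 fell in M-MF, with Acta2 going from 24 to 79.7 FPKM and Aspn from 351 to 140. In M-MyoF 5 rose and 3 fell. Epithelial markers were far from 0, at 2252 to 2303 FPKM in N-MF and 3021 to 3044 in M-MF, and at 18732 to 19230 in N-MyoF and 15852 to 16384 in M-MyoF, with the club cell gene Scgb1a1 and the surfactant gene Sftpc in the lead. Of 9 tested epithelial genes, 7 rose and 2 fell in M-MF, and 4 rose and 3 fell in M-MyoF (3 and 5 with equal sums, 3 and 4 with median-ratio scaling). Beside these marker counts, 46.3% of all tested genes were called higher and 31.8% lower in M-MF (limma, adjusted p under 0.05). In M-MyoF the shares were 49.1% and 31.6%, and the epithelial and myofibroblast counts there, as deposited, lay near them. In bulk RNA, a change in the number of cells that make a gene and a change in RNA per cell cannot be told apart.

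**Figure D1:**
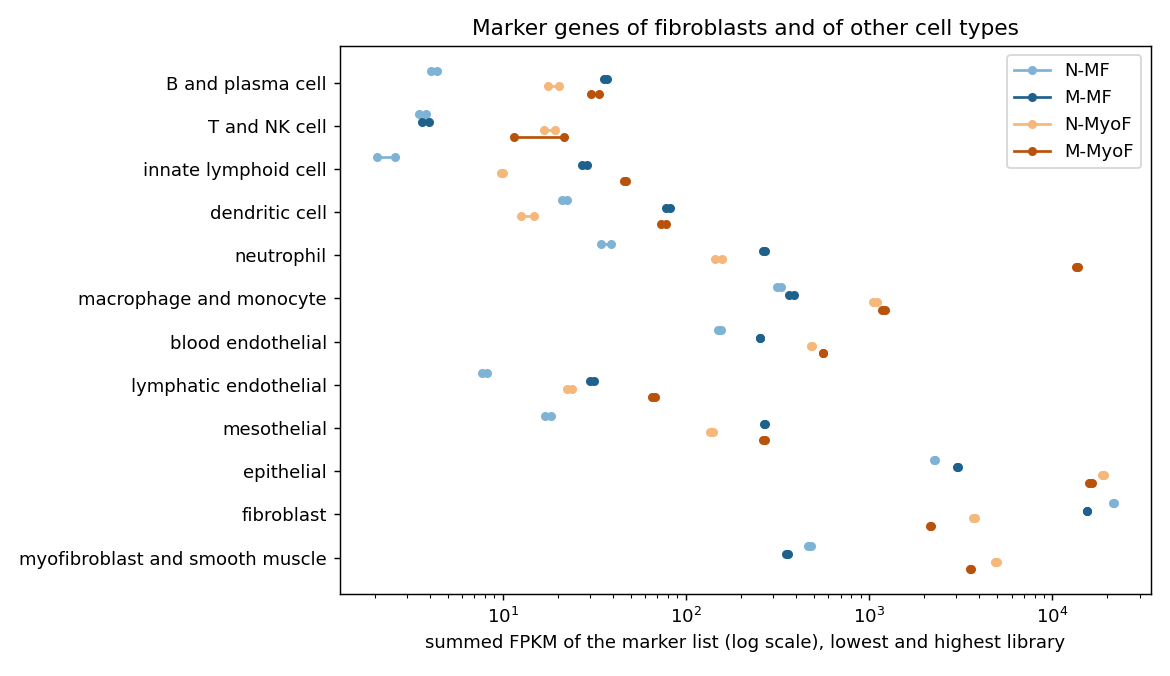
Summed FPKM of each marker list on a log axis, with the lowest and the highest library of each group joined by a line. Fibroblast markers were highest in the MF groups, myofibroblast and epithelial markers in the MyoF groups, and neutrophil markers reached 13796 FPKM in M-MyoF.

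In the RefSeq annotation of GRCm38.p6, Cxcl13 lies on chromosome 5 from 95956939 to 95961068, Ccl19 on chromosome 4 from 42754525 to 42756365, Cxcl12 on chromosome 6 from 117168535 to 117181368 and Ltbr on the same chromosome from 125306571 to 125313885. Il7 lies on chromosome 3 from 7572028 to 7613760, Tnfsf11 on chromosome 14 from 78277446 to 78308043, and Tnfsf13b and Il15 both on chromosome 8, from 10006229 to 10036000 and from 82331624 to 82403252. RefSeq lists pseudogene copies of Ccl19 on chromosome 4, so the level of Ccl19 is uncertain where reads could be split among copies. GENCODE M21 places a gene on the opposite strand across parts of Ccl19, Il7 and Tnfsf13b. Whether counting used strand is not stated in the labels, so reads of such partners cannot be told apart.

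Promoter windows of 300 bases, 250 before and 50 after the RefSeq start, were at hand for 6 of the 8 genes, those of Cxcl13, Ccl19, Cxcl12, Ltbr, Tnfsf13b and Tnfsf11. They were searched on both strands for a kappaB element of NF-kappaB (GGGA and TTCC parted by any 2 bases), the interferon-stimulated response element or ISRE (GAAA and GAAA parted by any 2 bases) and a STAT element (TTC and GAA parted by any 3 bases). The only matches were to the ISRE, once in the Ccl19 window, 208 bases before the start (position -208), and once in the window of the downstream Tnfsf13b start, at position -16, with no overlap with another motif. Of all 32851 windows of this length, 3.44% held the ISRE letters, 1.47% the kappaB and 8.3% the STAT letters. The windows with a match are printed here, together with that of Cxcl13, which changed the most of the 8 genes. These are the Cxcl13 window (GRCm38.p6, chr5:95956689-95956988, plus strand), the Ccl19 window (chr4:42756316-42756615, minus strand) and the downstream Tnfsf13b window (chr8:10006383-10006682, plus strand), written 5′ to 3′ with ISRE matches in capitals.
Cxcl13: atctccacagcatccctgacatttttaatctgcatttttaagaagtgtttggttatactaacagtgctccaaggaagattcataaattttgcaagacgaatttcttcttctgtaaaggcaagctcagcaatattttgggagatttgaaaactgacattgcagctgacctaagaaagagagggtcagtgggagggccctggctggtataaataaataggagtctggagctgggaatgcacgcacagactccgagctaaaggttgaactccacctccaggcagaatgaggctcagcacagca
Ccl19: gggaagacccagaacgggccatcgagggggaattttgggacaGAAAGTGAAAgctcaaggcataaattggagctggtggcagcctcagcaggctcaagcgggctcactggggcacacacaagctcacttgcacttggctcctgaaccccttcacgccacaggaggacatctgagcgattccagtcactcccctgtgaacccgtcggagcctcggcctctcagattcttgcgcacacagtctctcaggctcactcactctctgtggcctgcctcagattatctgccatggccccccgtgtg
Tnfsf13b: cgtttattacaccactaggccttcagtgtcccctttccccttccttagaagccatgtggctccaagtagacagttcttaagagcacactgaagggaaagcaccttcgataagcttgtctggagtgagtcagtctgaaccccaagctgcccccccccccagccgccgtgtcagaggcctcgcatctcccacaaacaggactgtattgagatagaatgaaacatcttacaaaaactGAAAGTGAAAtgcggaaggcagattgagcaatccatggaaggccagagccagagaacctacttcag
The matched letters were the same in both windows, GAAAGTGAAA. A match describes letters only, and the lack of one in the Cxcl13 window concerns these letters in this stretch.

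Metastatic and normal lung were compared within each subgroup, which asks how the bulk RNA of a subgroup differs between them. Of the 8 genes, 7 passed the filter on low values (at least 1 FPKM in at least 3 libraries) and were tested among 13300 genes, and Tnfsf11 did not. In M-MF, 5 of these 7 rose (Cxcl13, Ccl19, Cxcl12, Il7 and Tnfsf13b), Il15 fell and Ltbr did not pass. That stands against 46.3% of all genes called higher and 31.8% called lower at an adjusted p under 0.05 in limma. In M-MyoF, 6 of 7 rose (all but Ccl19) and 0 fell, against 49.1% of all genes called higher and 31.6% called lower. Ccl19, the tested gene that missed the threshold there, had an unadjusted p of 0.311 in limma, so that no gene of the 7 was lower even at an unadjusted p under 0.05. Calls of at least 2-fold were made for Cxcl13, Ccl19 and Tnfsf13b in M-MF (9.32% of all genes were called higher at that fold) and for Cxcl13 and Il7 in M-MyoF (11.4%). Tnfsf13b lay at the border in both, with log2 fold changes of 1.0. The median log2 fold change of the 7 was 0.79 in M-MF and 0.68 in M-MyoF, and that of all genes 0.08 and 0.11. With other scalings the median of all genes lay between -0.10 and -0.01 for M-MF and between -0.11 and -0.03 for M-MyoF, and the 5 genes that rose in M-MF kept their direction and call under each. Ltbr then passed as lower in M-MF, which made 5 higher and 2 lower.

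**Figure D2:**
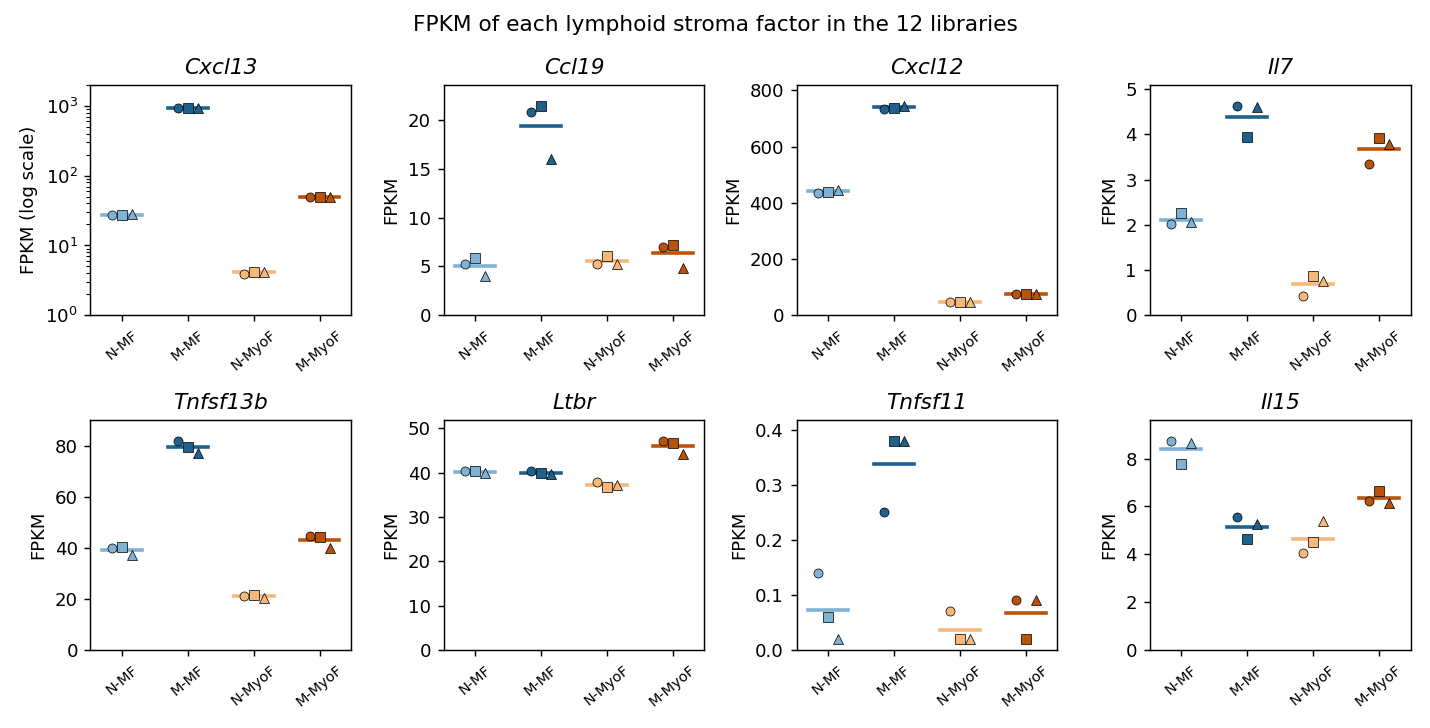
FPKM of the 8 genes in each library by group, with a line at each group mean; circles, squares and triangles are the libraries numbered 1, 2 and 3, the Cxcl13 axis is logarithmic and the others start at 0. Cxcl13 in M-MF, at 923.45 to 940.31 FPKM, stood above every other library, and Il15 was highest in N-MF.

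Cxcl13, the B cell attractant, showed the largest change of the 8 genes in both subgroups. In N-MF its 3 libraries had 27.23, 27.43 and 28.05 FPKM, and in M-MF 940.31, 923.45 and 926.12 FPKM. In N-MyoF they had 3.96, 4.21 and 4.12 FPKM, and in M-MyoF 49.18, 49.45 and 50.18 FPKM. No group overlapped another, and the order was M-MF, M-MyoF, N-MF and N-MyoF. The mean ratio was 33.7 in MF, with a log2 fold change of 5.03 ± 0.023 (SE here and below; adjusted p = 4.53e-19, limma here and below). In MyoF the ratio was 12.1 and the log2 fold change 3.31 ± 0.023 (adjusted p = 1.10e-17). Among 13300 genes, 0.113% had a larger rise in M-MF and 1.03% in M-MyoF. By mean FPKM, Cxcl13 ranked 2666 of 20606 genes in N-MF and 73 in M-MF, and 9052 in N-MyoF and 2031 in M-MyoF.

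The effect on Cxcl13 was larger in MF than in MyoF. The difference of the effects was 1.71 ± 0.0326 (adjusted p = 5.07e-13), and 6 of the 7 tested genes passed this test, where 64.4% of all genes did (26.4% with a positive difference, MF minus MyoF, and 38% with a negative one). Of the 7, Cxcl13 and Ccl19 had positive differences of at least 2-fold, as had 3.83% of all genes. The difference was 1.5 with a pseudocount of 0.1 and 2.26 with 5. Within each library number, Cxcl13 rose by 5.06, 5.02 and 5.0 on the log2 scale in MF and by 3.34, 3.28 and 3.32 in MyoF, so libraries 1, 2 and 3 gave nearly the same effect. Mesothelial markers moved in the same libraries. Of 8 tested mesothelial genes, 8 rose in M-MF and 7 in M-MyoF. The 9 genes of the list summed to 17 to 18.3 FPKM in N-MF and 266 to 271 in M-MF, and to 136 to 141 in N-MyoF and 263 to 272 in M-MyoF, and their part in the Cxcl13 result was not tested. The keratin genes Krt8, Krt18 and Krt14 of the epithelial list also rose there. Krt8 went from 5.31 to 166 FPKM in MF (4.73 ± 0.074) and from 23 to 387 FPKM in MyoF (4.02 ± 0.074), and Krt18 from 4.79 to 122 FPKM (4.41 ± 0.0311) and from 24.5 to 293 FPKM (3.53 ± 0.0311). Krt14 was listed at 0 in N-MF and at 8.61 FPKM in M-MF, and rose from 1.3 to 16.8 FPKM in MyoF. Other genes of that list went the other way. Cdh1 (-0.17 in MF, -0.30 in MyoF) and Sftpc (-0.14, -0.38) fell in both, and Scgb1a1 fell in MyoF (-0.27). Of 9 tested, 7 rose and 2 fell in M-MF (46.3% and 31.8% of all genes). In M-MyoF 4 rose and 3 fell (49.1% and 31.6% of all genes). The part of cells that make these keratins in the rise of Cxcl13 and the other genes was not tested, nor was that of the fall in fibroblast markers.

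Cxcl12, which binds CXCR4, was the most abundant of the 8 genes in every group but M-MF. It stood at 434.9, 439.6 and 446.07 FPKM in N-MF and at 734.09, 738.36 and 744.66 FPKM in M-MF. The MyoF libraries had 47.36, 47.58 and 45.77 FPKM in N-MyoF and 75.68, 74.64 and 76.32 FPKM in M-MyoF. All 4 groups were apart, with both MF groups above both MyoF groups. Cxcl12 rose by 0.75 ± 0.0188 in M-MF (adjusted p = 1.06e-12) and by 0.68 ± 0.0188 in M-MyoF (adjusted p = 2.19e-12). The difference between these effects was 0.07 ± 0.0266 (95% interval 0.012 to 0.13, adjusted p = 0.0359), and it missed the threshold in 11 of 23 alternative fits (adjusted p 0.000532 to 0.106 over all 23). The libraries whose removal ended that call were N-MF 1 and 2, N-MyoF 1 and 2, M-MF 2 and 3, and M-MyoF 1 and 2, with values of 0.06 to 0.07.

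The balance of the 2 CXC chemokines turned in M-MF. The ratio of Cxcl13 to Cxcl12 FPKM within a library, which scaling of a library by a constant does not change, was 0.0624 to 0.0629 in N-MF and 1.24 to 1.28 in M-MF. It was 0.0836 to 0.09 in N-MyoF and 0.65 to 0.663 in M-MyoF. M-MF was thus the sole group in which Cxcl13 transcripts outnumbered those of Cxcl12 per length.

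Ccl19, the CCR7 ligand, rose in M-MF. Its libraries had 5.29, 5.89 and 4.03 FPKM in N-MF against 20.82, 21.44 and 16 FPKM in M-MF. They had 5.23, 6.11 and 5.2 FPKM in N-MyoF against 7, 7.2 and 4.81 FPKM in M-MyoF. M-MF lay above all others, while the other 3 groups overlapped their neighbours in the order of levels. The library numbered 3 was the lowest of its group in all 4 groups. The rise in M-MF was 1.75 ± 0.149 (adjusted p = 2.07e-07). In M-MyoF the log2 fold change was 0.16 ± 0.149 (95% interval -0.17 to 0.48, adjusted p = 0.342), and without the 4 libraries numbered 3 it was 0.28 with adjusted p = 0.00553 (adjusted p 0.00553 to 0.967 over its 24 alternative fits). It changed sign after rescaling to equal sums (-0.0076) and quantile normalization (-0.029). The effect in MF exceeded that in MyoF by 1.59 ± 0.211 (adjusted p = 2.89e-05).

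Tnfsf13b, which encodes the B cell survival factor BAFF, rose in both subgroups. N-MF libraries had 40.05, 40.33 and 37.17 FPKM and M-MF libraries 81.91, 79.22 and 77.14 FPKM. N-MyoF libraries had 21.23, 21.53 and 20.21 FPKM and M-MyoF libraries 44.45, 44.07 and 40.07 FPKM. M-MF was highest and N-MyoF lowest, and M-MyoF overlapped N-MF between them. The log2 fold change was 1.0 ± 0.044 in MF (adjusted p = 2.60e-10) and 1.0 ± 0.044 in MyoF (adjusted p = 2.37e-10). The difference of the effects was 0.0064 with a 95% interval of -0.13 to 0.14 (adjusted p = 0.934). Neutrophils, which also make BAFF, left markers in the same libraries, where 11 of 13 neutrophil genes rose in M-MF and 13 in M-MyoF. The 13 genes summed to 34.3 to 38.9 FPKM in N-MF and 262 to 271 in M-MF, and to 144 to 157 in N-MyoF and 13454 to 13796 in M-MyoF. The 14 macrophage and monocyte genes summed to 315 to 330 FPKM in N-MF and 364 to 391 in M-MF. In N-MyoF they summed to 1050 to 1101 and in M-MyoF to 1181 to 1227. Of 11 tested, 2 rose and 4 fell in M-MF (46.3% and 31.8% of all genes). In M-MyoF 2 rose and 5 fell (49.1% and 31.6% of all genes). The part of neutrophils, macrophages and monocytes in the BAFF result was not tested.

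Il7, the T cell survival cytokine, was low and rose in both subgroups. The libraries had 2.01, 2.27 and 2.06 FPKM in N-MF and 4.63, 3.95 and 4.6 FPKM in M-MF. They had 0.43, 0.87 and 0.76 FPKM in N-MyoF and 3.34, 3.91 and 3.79 FPKM in M-MyoF. No groups overlapped, though the lowest M-MF library (3.95) and the highest M-MyoF library (3.91) nearly met. The log2 fold changes were 0.79 ± 0.0919 in MF (adjusted p = 4.46e-06) and 1.48 ± 0.0919 in MyoF (adjusted p = 7.54e-09), with a difference of -0.69 ± 0.13 (adjusted p = 0.000531). Since the added 1 FPKM is large against these levels, the effects were 1.02 and 2.31 with a pseudocount of 0.1 and 0.40 and 0.61 with 5, and the difference -1.29 and -0.21.

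Il15, which sustains NK cells, moved in opposite directions in the 2 subgroups. It fell from 8.75, 7.78 and 8.65 FPKM in N-MF to 5.56, 4.62 and 5.28 FPKM in M-MF. It rose from 4.04, 4.52 and 5.38 FPKM in N-MyoF to 6.22, 6.65 and 6.15 FPKM in M-MyoF. N-MF was the highest group, and M-MF and N-MyoF overlapped as the lowest. The log2 fold changes were -0.61 ± 0.0816 (adjusted p = 1.63e-05) and 0.38 ± 0.0816 (adjusted p = 0.000786), and their difference was -1.0 ± 0.115 (adjusted p = 9.07e-06). Over the 24 alternative fits the MF value stayed between -0.75 and -0.40 and the MyoF value between 0.22 and 0.49, and both passed in each.

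Il15ra, which presents IL-15, rose in both subgroups, from 14.5 to 29.6 FPKM in MF (0.98 ± 0.0427, adjusted p = 2.41e-10) and from 6.43 to 25.1 FPKM in MyoF (1.81 ± 0.0427, adjusted p = 4.62e-13). The ratio of Il15 to Il15ra within a library was 0.521 to 0.63 in N-MF and 0.147 to 0.194 in M-MF. It was 0.652 to 0.824 in N-MyoF and 0.242 to 0.262 in M-MyoF. The ratio was lower with metastasis in both subgroups, also where Il15 itself rose.

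Ltbr, the lymphotoxin beta receptor, was present at a similar level in all groups. Its libraries had 40.42, 40.32 and 39.9 FPKM in N-MF and 40.31, 39.99 and 39.7 FPKM in M-MF. They had 37.93, 36.74 and 37.32 FPKM in N-MyoF and 47.26, 46.81 and 44.24 FPKM in M-MyoF. The 2 MF groups overlapped, M-MyoF was highest and N-MyoF lowest. The log2 fold change in MF was -0.0075 ± 0.026 (95% interval -0.064 to 0.049, adjusted p = 0.802). It passed as lower when libraries were set to the same sum (-0.12), scaled by median ratios (-0.14) or quantile normalized (-0.24). In MyoF it was 0.30 ± 0.026 (adjusted p = 2.51e-07), and 0.029 with adjusted p = 0.269 after quantile normalization. The effect in MyoF exceeded that in MF by a log2 difference of -0.30 ± 0.0368 (MF minus MyoF, adjusted p = 1.34e-05).

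Tnfsf11, which encodes RANKL, stayed under 0.4 FPKM in every library and was not tested in the fit across genes. It stood at 0.14, 0.06 and 0.02 FPKM in N-MF and at 0.25, 0.38 and 0.38 FPKM in M-MF. The MyoF libraries had 0.07, 0.02 and 0.02 FPKM in N-MyoF and 0.09, 0.02 and 0.09 FPKM in M-MyoF. M-MF lay above the other groups, which overlapped. An exact two-sided permutation test on the log2 scale gave p = 0.1 for M-MF against N-MF, the smallest p that 3 against 3 libraries allow (0.2 adjusted over 4 comparisons). The decoy receptor of RANKL, Tnfrsf11b or osteoprotegerin, rose from 2.21 to 19.8 FPKM in MF (2.69 ± 0.0467, adjusted p = 3.01e-14) and from 6.43 to 13.7 FPKM in MyoF (0.99 ± 0.0467, adjusted p = 4.64e-10).

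**Figure D3:**
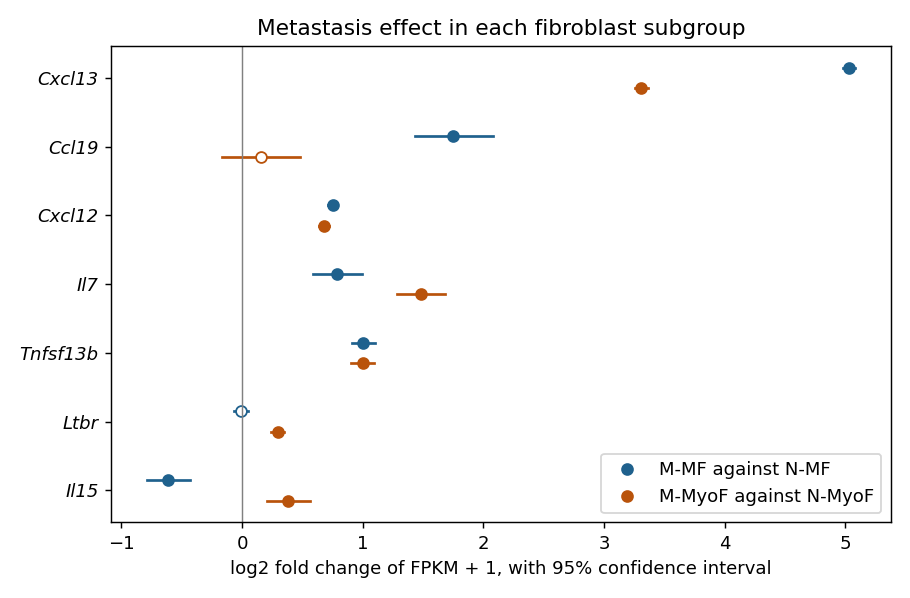
Log2 fold change of FPKM + 1 with metastasis for the 7 tested genes in MF (blue) and MyoF (orange), with 95% confidence intervals; open points did not pass at an adjusted p under 0.05. Cxcl13 had the largest effects (5.03 and 3.31), the 2 effects on Tnfsf13b coincided at 1.0, and those on Il15 had opposite signs.

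The subgroups were also compared within normal and within metastatic lung. In normal lung, N-MF was higher than N-MyoF for 6 of 7 tested genes, all but Ccl19, where 24.5% of all genes were called higher. The largest differences were in Cxcl12, 9.39 times higher by mean FPKM (3.20 ± 0.0188, adjusted p = 6.93e-19), and Cxcl13, 6.73 times higher (2.49 ± 0.023, adjusted p = 4.41e-17). These 2 passed the 2-fold mark, as did 4.88% of all genes in that direction. Il7 (0.89 ± 0.0919), Tnfsf13b (0.87 ± 0.044), Il15 (0.74 ± 0.0816) and Ltbr (0.10 ± 0.026) passed with smaller differences. Ccl19 had -0.11 ± 0.149 (adjusted p = 0.501), and its sign turned with median-ratio scaling (0.14), quantile normalization (0.19) and without N-MF library 3 (0.018).

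In metastatic lung, M-MF was higher than M-MyoF for Cxcl13, Cxcl12, Ccl19 and Tnfsf13b, where 19.1% of all genes were called higher, and lower for Ltbr and Il15, where 66% were called lower. Cxcl13 was 18.7 times higher by mean FPKM (4.20 ± 0.023, adjusted p = 1.29e-18), and 0.0526% of the 13300 genes had a larger difference. Cxcl12 was 9.78 times higher (3.27 ± 0.0188), Ccl19 3.06 times (1.48 ± 0.149) and Tnfsf13b 1.85 times (0.88 ± 0.044). At 2-fold or more, Cxcl13, Cxcl12 and Ccl19 were higher, as were 4.74% of all genes. Il7 had 0.20 ± 0.0919 and missed the threshold (adjusted p = 0.0542), while it passed with the library number as a block (adjusted p = 0.0447). It passed in 9 of 23 alternative fits, among them those without M-MF library 2 (0.26), without N-MyoF library 1 or 2 (0.20 each) and under the 3 other scalings (0.31, 0.46 and 0.56). Its adjusted p ran from 3.58e-05 to 0.204 over these fits.

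The small differences between M-MF and M-MyoF depended on the scaling. The median of all genes was -0.29 in M-MF against M-MyoF and -0.21 in N-MF against N-MyoF with values as deposited, and -0.01 and 0.03 after median-ratio scaling. Ltbr stood at -0.20 ± 0.026 as deposited (adjusted p = 1.11e-05), at 0.12 after median-ratio scaling, where it was called higher, and at -0.054 after quantile normalization. Il15 stood at -0.26 ± 0.0816 (adjusted p = 0.0106), at 0.019 and 0.071 under these 2 scalings, and at -0.19 without M-MF library 2 (adjusted p = 0.053, in a range of 0.00285 to 0.841 over 24 alternatives). Cxcl13, Cxcl12, Ccl19 and Tnfsf13b remained higher in M-MF, past the threshold, under each scaling.

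**Figure D4:**
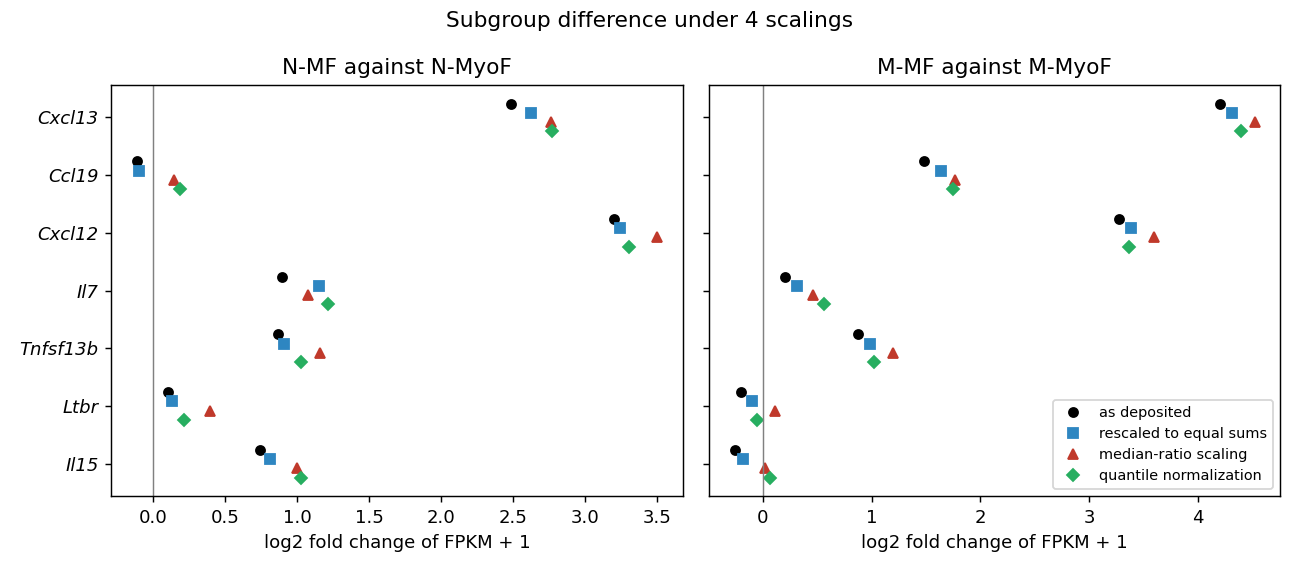
Log2 fold change of FPKM + 1 of MF against MyoF in normal (left) and metastatic lung (right) for the 7 tested genes, with values as deposited and under 3 other scalings. Cxcl13 and Cxcl12 stayed above 2 throughout, and in metastatic lung Ltbr and Il15 crossed 0.

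The shares of all genes to set beside each list are those given above, 46.3% higher and 31.8% lower in M-MF, and 49.1% and 31.6% in M-MyoF, with all-gene medians of 0.08 and 0.11. Receptors of these factors were given as a list of 16 genes, of which 11 passed the filter. In M-MF 5 were higher and 4 lower with a median of 0.05, near the shares and median of all genes, and in M-MyoF 8 were higher and 3 lower with a median of 0.68; after quantile normalization the counts were 5 and 6, and 6 and 4, and with equal sums those in M-MyoF were 6 and 5. Among those higher in both were Il2rg, the shared chain of the IL-7 and IL-15 receptors (3.32 to 24.7 FPKM in MF, 2.58 ± 0.0384; 13.1 to 53.1 FPKM in MyoF, 1.94 ± 0.0384), and Tnfrsf11b and Il15ra, given above. Ackr3, a scavenging receptor of CXCL12, was the most abundant receptor in MF and fell from 342 to 208 FPKM there (-0.71 ± 0.0236, adjusted p = 1.48e-11), while in MyoF it had 0.11 ± 0.0236 (61.7 to 66.6 FPKM) as deposited and -0.18 to -0.05 under the 3 other scalings. The signalling receptors of the chemokines were low. Cxcr5, the CXCL13 receptor, had group means of 0.06 to 0.64 FPKM, Ccr7 of 0.76 to 6.72 and Cxcr4 of 1 to 6.31, each with its larger means in the MyoF groups. The BAFF receptor gene Tnfrsf13c stayed at 0.223 to 0.79 FPKM and Il7r at 0.04 to 0.467.

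Of 15 genes of lymphotoxin and noncanonical NF-kappaB signalling, 14 were tested. In M-MF 9 were higher and 4 lower with a median of 0.24, and in M-MyoF 8 were higher and 5 lower with a median of 0.17, near those of all genes (49.1% higher, 31.6% lower, median 0.11). After quantile normalization 6 were higher and 6 lower in M-MF, and 5 and 7 in M-MyoF; with equal sums or median-ratio scaling M-MyoF had 6 and 6. Nfkb2, which encodes the p52 precursor, rose in MF (21.7 to 26.3 FPKM, 0.27 ± 0.0264, adjusted p = 8.75e-07) and fell in MyoF (60.9 to 47.3 FPKM, -0.36 ± 0.0264, adjusted p = 4.26e-08), and the effects differed by 0.63 ± 0.0374 (adjusted p = 1.74e-08). The rise in MF missed the threshold after quantile normalization (0.059, adjusted p = 0.0539). Birc3, an inhibitor of apoptosis that also restrains this pathway, fell in both, from 50.6 to 41.2 FPKM (-0.29 ± 0.0231) and from 148 to 53.2 FPKM (-1.46 ± 0.0231). Birc2, of the same list, rose in MF (17.7 to 26.8 FPKM, 0.57 ± 0.0321) and fell in MyoF (39.5 to 30.7 FPKM, -0.35 ± 0.0321). As deposited, Traf2 (0.43 in MF, 0.31 in MyoF) and Traf3 (0.21 and 0.30) rose in both. The TNF receptor Tnfrsf1b rose in both, by 1.23 ± 0.0326 and 1.30 ± 0.0326. Of the lymphotoxin genes, Ltb had 0.833 FPKM in N-MF and 2.52 in M-MF, and 2.26 in N-MyoF and 7.12 in M-MyoF, while Lta stayed at 0.26 to 0.673 FPKM. Tnfsf14, of the same list, had 0.317 FPKM in N-MF and 0.23 in M-MF (adjusted p = 0.0634). It rose from 0.567 to 1.66 FPKM in MyoF (0.76 ± 0.0451).

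**Figure D5:**
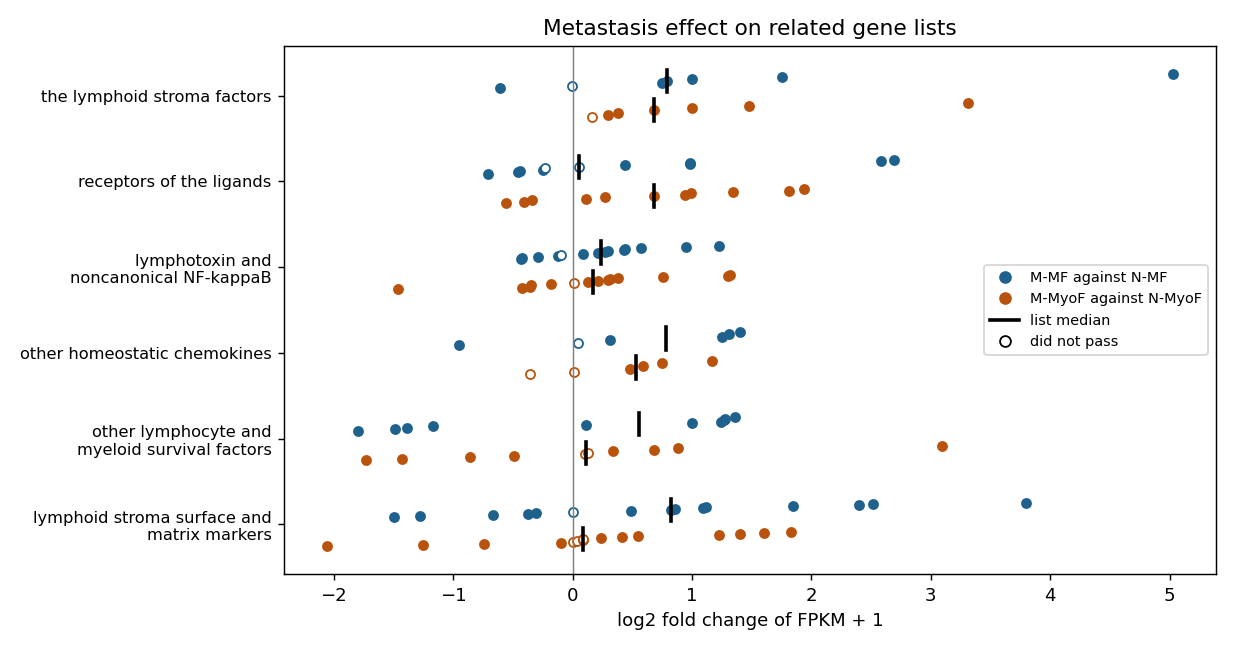
Log2 fold change of FPKM + 1 with metastasis for each tested gene of 6 lists, in MF (blue) and MyoF (orange), with a black line at the list median; open points did not pass at an adjusted p under 0.05. Cxcl13 in MF, at 5.03, was the largest value shown, and each list but the lymphoid stroma factors and other homeostatic chemokines in MyoF held genes past the threshold in both directions.

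Other homeostatic chemokines were fewer. Of 9 listed, 6 were tested, with 4 higher and 1 lower in M-MF (median 0.78), and 4 higher and 0 lower in M-MyoF (median 0.54; 4 and 1 under each other scaling). Cxcl14 rose from 32.2 to 78 FPKM in MF (1.25 ± 0.0394) and Cx3cl1, the membrane-bound fractalkine, from 6.27 to 17 FPKM (1.31 ± 0.0358). Ccl21a, the partner of CCL19 at CCR7, was listed at 0 in 11 of 12 libraries. Its close copies make this value uncertain.

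Other survival factors of lymphocytes and myeloid cells were listed beside Il7, Il15 and Tnfsf13b. Of 13 listed, 10 were tested, with 6 higher and 4 lower in M-MF (median 0.56) and 4 higher and 4 lower in M-MyoF (median 0.12, against 0.11 for all genes). Tslp, which acts on dendritic and lymphoid cells, rose from 12.7 to 34.1 FPKM in MF (1.36 ± 0.0616) and from 7.4 to 70.1 FPKM in MyoF (3.09 ± 0.0616). Tnfsf13, the gene of the BAFF relative APRIL, rose in MF (4.06 to 9.11 FPKM, 1.0 ± 0.0653) and fell in MyoF (8.95 to 6.08 FPKM, -0.49 ± 0.0653). Icosl, the ligand of the T cell receptor ICOS, fell in both, by -1.80 ± 0.0292 and -0.86 ± 0.0292. Il6 fell from 200 to 70.8 FPKM in MF (-1.49 ± 0.0335) and from 117 to 34.4 FPKM in MyoF (-1.73 ± 0.0335).

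Surface and matrix markers of lymphoid stroma formed a list of 18. Of these, 15 were tested, with 9 higher and 5 lower in M-MF (median 0.82) and 7 higher and 4 lower in M-MyoF (median 0.09; 6 and 8 after quantile normalization, 6 and 7 with equal sums). The M-MyoF count and median lay near the 49.1% higher, 31.6% lower and 0.11 of all genes. In MF, Bst1, a marker of lymphoid reticular cells, rose from 0.97 to 26.3 FPKM (3.80 ± 0.0483), Clu, abundant in follicular dendritic cells, from 49.4 to 287 FPKM (2.52 ± 0.027), and Enpp2, which makes lysophosphatidic acid, from 113 to 246 FPKM (1.12 ± 0.0156). In MyoF, Bst1 rose from 5.19 to 15.3 FPKM (1.40 ± 0.0483), Enpp2 fell from 1440 to 860 FPKM (-0.74 ± 0.0156), and Clu had 213 and 218 FPKM (0.038 ± 0.027, adjusted p = 0.209; -0.26 to -0.12 under the other scalings). The adhesion molecule Icam1 fell in both subgroups, by -1.28 ± 0.0158 and -2.06 ± 0.0158. Lepr also fell in both, by -1.50 ± 0.0286 and -1.25 ± 0.0286. Vcam1 fell in MF (179 to 138 FPKM) and rose in MyoF (31.2 to 74.3). Pdpn rose in MF (167 to 304 FPKM, 0.86 ± 0.0344) and, as deposited, by less in MyoF (44.7 to 52.9 FPKM, 0.24 ± 0.0344). Of genes of follicular dendritic and marginal reticular cells, 3 were near 0, with Cr2 at 0.02 to 0.0767 FPKM, Fcer2a at 0.167 to 0.78 and Madcam1 at 0.13 to 0.327. Mfge8, of the same list, was abundant, at 284 FPKM in both MF groups, 501 in N-MyoF and 468 in M-MyoF.

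Most markers of the cells that these factors act on were low, but group means of Fscn1, Gata3 and Jchain reached 73.4, 37.5 and 26.5 FPKM. The 11 B and plasma cell genes found summed to 4.07 to 4.4 FPKM in N-MF and 35.8 to 37.2 in M-MF, and to 17.6 to 20.4 in N-MyoF and 30.5 to 33.5 in M-MyoF. Of 5 tested, 3 rose and 0 fell in M-MF, namely Jchain (0.35 to 26.5 FPKM), Spib (0.637 to 4.76) and the plasma cell gene Mzb1 (0.203 to 2.38). In M-MyoF 3 rose and 1 fell. Jchain rose there from 2.92 to 18 FPKM, Spib from 0.837 to 1.18 and Mzb1 from 1.88 to 4.26. Cd79a fell there from 8.28 to 4.7 FPKM (-0.70 ± 0.076). The B cell gene Ms4a1 stood at 0.0533 FPKM in M-MF and at no more than 0.447 in any group. The 13 T and NK cell genes summed to 3.49 to 3.97 FPKM in the MF libraries and to 11.5 to 21.7 in the MyoF libraries. Of 3 tested dendritic cell genes, Fscn1 (17.1 to 73.4 FPKM in MF, 4.34 to 67.1 in MyoF) and Zbtb46 (3.4 to 5.93 and 4.19 to 6.08) rose in both subgroups. Itgax fell in both, from 0.253 to 0.00333 FPKM in MF (-0.32 ± 0.0683) and from 1.55 to 0.203 FPKM in MyoF (-1.08 ± 0.0683). Flt3 and Xcr1, which were not tested, had group means at or under 0.4 FPKM. Among innate lymphoid genes, Gata3 and Il1rl1 rose in both subgroups, with Gata3 going from 1.2 to 18.4 and from 3.87 to 37.5 FPKM, and Il22, Il17a, Il5 and Il13 were at or under 0.167 FPKM. The part of any of these cells in the results was not tested.

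The genes most like each of the 7 tested genes were those with the smallest root mean square difference between centred log2 values over the 12 libraries, which is a description over 4 groups. Unnamed gene models were left out. The measure is not scaled to the size of the changes, so distances cannot be compared between a gene that changed much and one that changed little. For Cxcl13 the nearest genes were Pla1a (0.913), Mrgprg (0.938) and Serpina3n (0.958). Mrgprg went from 17.8 to 544 FPKM in MF and from 0.107 to 6.19 FPKM in MyoF. For Cxcl12 they were Ugt1a6a (0.195), Ptx3 (0.207) and Cpxm1 (0.217), and for Ccl19 Wnt4 (0.191), Spib (0.196) and Stac2 (0.229). For Tnfsf13b they were Creld2 (0.125), Dynlt1b (0.128) and Tmem106a (0.133), and for Il7 Sp110 (0.116), H2-M3 (0.123) and Abracl (0.125). Il15 was nearest to Nhsl2 (0.106), Crispld2 (0.121) and Vsir (0.125), and Ltbr to Nelfb (0.032), Chsy1 (0.0397) and Rnf14 (0.0414).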

How the data were processed

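Per the file headers, the authors deposited FPKM, 1 column per library, with 2 decimals. The genome build was GRCm38 per the submitters' processing notes. No label or header names the aligner, counter or annotation. Per the labels' protocols, polyA RNA was amplified with SMART-SeqII and libraries were built with transposase. Groups came from sample titles, and 0 columns belonged to no listed sample.

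Genes reaching 1 FPKM in 3 or more libraries were tested on the log2(FPKM + 1) scale, using limma 3.58.1 under R 4.3.3. A single model of 4 group means over 12 libraries, with a variance trend, gave 5 contrasts. P-values were adjusted by Benjamini-Hochberg over 13300 genes, with calls under 0.05. The scale understates fold changes of low genes. The read depth is unknown. The code was tested on simulated data. Python 3.11.15, scipy 1.17.1 and matplotlib 3.10.9 served for tables, exact tests and figures.

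The genes and 17 further lists (191 entries) were chosen with earlier results of these data known. Most named genes of a list had 1 of its 4 smallest p in a metastasis comparison. Tnfsf13, Ltb, Lta, Traf2, Traf3, Ccl21a, Ackr3 in MyoF, Cxcr4, Ccr7, Mfge8, Pdpn, Vcam1 and genes named for low levels or as leading or cell-type markers were chosen after their values were seen. Library numbers pair the libraries: over 1830 genes, the 18 pairs with the same number had correlations of deviations from group means of 0.482 to 0.796, and the 36 others -0.683 to 0.38. Alternatives covered pseudocounts, filters, scalings, fit settings, the replicate block, libraries left out and call thresholds.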

Additional observations from a re-analysis of the deposited data

Results flagged for a closer look

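The effect of metastasis differed between MF and MyoF, by the test of the difference itself, for 6 of the 7 tested genes. On the log2 scale, MF minus MyoF, the difference was 1.71 for Cxcl13, 1.59 for Ccl19 and 0.07 for Cxcl12. It was -0.69 for Il7, -0.30 for Ltbr and -1.0 for Il15. The call on Cxcl12 was lost in 11 of 23 alternative fits. Of all genes, 26.4% were called with a positive difference and 38% with a negative one, which counts the sign and not the size of the effects. Il15 is the sole gene of the 6 for which every library of M-MF lay below every library of N-MF while every library of M-MyoF lay above every library of N-MyoF.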

How the results depend on the processing

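Of 35 results (7 genes in 5 contrasts), 26 kept their direction and their side of the threshold in every alternative run, and 9 did not. The number of genes called was 6 of 7 in each of the 5 contrasts. Most of all tested genes were also called in each, and whether 6 of 7 exceeds this was not tested. Of all genes, 46.3% were called higher and 31.8% lower in M-MF against N-MF, and 49.1% and 31.6% in M-MyoF against N-MyoF. In M-MF against M-MyoF the shares were 19.1% and 66%. The difference of effects was called for 64.4% of all genes. In N-MF against N-MyoF, 3254 of 13300 genes (24.5%) were called higher and 7658 lower. At 2-fold or more, 3 of the 7 were called higher in M-MF against N-MF (9.32% of all genes) and 2 in M-MyoF against N-MyoF (11.4%). It was 2 in the difference of effects (3.83%), 2 in N-MF against N-MyoF (4.88%) and 3 in M-MF against M-MyoF (4.74%). Signs turned for Ccl19 in M-MyoF against N-MyoF with equal sums (-0.0076) and quantile normalization (-0.029), and in N-MF against N-MyoF with median-ratio scaling (0.14), quantile normalization (0.19) and without N-MF library 3 (0.018; -0.21 to 0.018 over single libraries left out). They turned in M-MF against M-MyoF for Il15 with median-ratio scaling (0.019) and quantile normalization (0.071) and for Ltbr with median-ratio scaling (0.12). For Tnfsf13b the difference of effects, 0.0064, turned with a pseudocount of 0.1 (-0.0075), quantile normalization (-0.0057) and without the libraries numbered 3 (-0.031), and ran from -0.040 to 0.033 with single libraries left out; it passed in none of these fits. The cause of these turns was not tested. With the filter of 5 FPKM, Il7 left the fit. With the replicate block, 7 genes instead of 6 were called in M-MF against M-MyoF, since Il7 passed (0.20, adjusted p = 0.0447), and no other call on the 7 genes changed. Without the libraries numbered 3, Ccl19 passed in M-MyoF (0.28), so that 7 were called there. The higher share of all calls in M-MF against N-MF was 59.3% as deposited and 49.7%, 47.8% and 40.4% under equal sums, median ratios and quantiles. In M-MyoF against N-MyoF it was 60.8%, then 45.3%, 48.2% and 41.1%; in N-MF against N-MyoF 29.8%, then 31%, 53.8% and 52.1%; and in M-MF against M-MyoF 22.4%, then 28.8%, 48.8% and 47.3%. Depth is unknown, and low levels such as those of Il7 and Tnfsf11 limit precision.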
